A study of Drosophila melanogaster with 11 samples.

Results

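Wild-type Drosophila embryos aged 2 to 3 h were compared with unfertilized wild-type eggs aged 4 to 6 h, each measured against RNA of stage 14 oocytes on 2-colour cDNA arrays. The arrays were chosen by their titles: 4 arrays of w1118 embryos and 3 arrays of w1118 unfertilized eggs, 7 of the 11 arrays in the series. The other 4 arrays hold material of the smg genotype aged 2 to 3 h, 1 of them labelled as smg over a deficiency, and stand beside the comparison only. All groups share the w1118 stage 14 oocyte as reference RNA. On embryo arrays the sample carried the red dye, Alexa Fluor 647, and the oocyte RNA the green dye, Alexa Fluor 555, by indirect labelling of 60 µg of RNA. On egg arrays the sample carried green Cy3 and the oocyte RNA red Cy5, by direct labelling per the labels, although the series' design text names the indirect protocol alone. Fertilization, age, dye orientation and labelling method therefore change together between the groups and cannot be told apart. The labels do not say how many mothers or collections stand behind an array, so a p-value here reflects array-to-array spread, which may be technical.

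A Drosophila egg is laid with a large store of maternal RNA and is activated as it passes down the oviduct, whether or not sperm has entered. Activation alone starts the translation of many maternal messages and a first, maternally driven round of their destruction. Transcription from the embryo's own genome, and a later decay activity that depends on it, follow the nuclear divisions that fertilization sets off. An unfertilized egg therefore serves as the control in which maternal processes run without zygotic transcription. The smg gene encodes Smaug, an RNA-binding repressor that directs the decay of maternal messages.

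All values below are log2 ratios to oocyte RNA after the gene median of the array was subtracted, so 0 is the ratio of the median gene, and a difference is the mean of the embryo arrays minus the mean of the egg arrays. The oocyte level below stands for this 0 and not for a measured equality with oocyte RNA. A ratio near 0 also arises where a gene is at background in both channels, and channel intensities were not analysed here. In RNA of whole eggs and embryos, fewer cells that express a gene and less RNA per cell cannot be told apart. Of 6793 named genes, 6322 had values on at least 3 embryo arrays and 2 egg arrays and were tested with limma at an adjusted p of 0.05. Of the 471 genes not tested, 460 were short of embryo values alone. Embryo replicate 1 stood apart: 48.9% of its spots carried a value, and its gene median as deposited was -4.01. On the other arrays of the comparison 75.0% to 99.1% of spots carried a value, and medians lay between -0.37 and 0.16. The number of arrays limits the precision, and the median SD of a gene was 0.41 over embryo arrays and 0.26 over egg arrays.

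The numerator of the ratio is not stated. The sample was taken as the numerator, which the order of the titles makes likely. The 12 pairs of an embryo and an egg array, which carry opposite dyes, correlated across genes with r between 0.29 and 0.56. Pairs of embryo arrays correlated with r between 0.46 and 0.73 and pairs of egg arrays between 0.59 and 0.62. These correlations are across genes, which are not independent replicates, and all pairs share the oocyte reference.

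Markers of a fertilized embryo separated the groups in the direction of their labels. Of 8 blastoderm transcripts listed as marks of a fertilized embryo, 6 were on the array: Kr, kni, hkb, twi, Sry-alpha and Elba3. Their median was 1.82, 2.90, 2.18 and 2.47 on embryo replicates 1 to 4, with 3 of the 6 measured on the first. On the egg arrays it was 0.02, -0.21 and 0.09, so the groups did not overlap. The list was written with earlier results of these data known. All but kni are also among the genes called below, so their separation is no independent evidence. Of the eggshell and yolk list 3 members were measured, Yp1, Yp2 and Yp3, with array medians of -2.71 to -1.996 in embryos and -2.21 to -1.24 in eggs. The 9 muscle and neuron genes of later embryos had medians of 0.06 to 0.76 in embryos and 0.08 to 0.25 in eggs. The 6 testis and sperm genes had medians of -0.02 to 0.34 in embryos and 0.20 to 0.56 in eggs. None of the yolk, late or testis genes was called, and their part in the results below was not tested.

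Embryos differed from unfertilized eggs mainly by transcripts above the oocyte level in embryos and near it in eggs. By limma, 58 genes were higher in embryos, 0.917% of those tested, and 10 were lower, 0.158%. In either direction this is 1.08% of the genes. The differences ran from 1.33 to 5.51 for the higher genes, with a median of 1.89, and from -1.96 to -1.18 for the lower genes, with a median of -1.39. For all 68 genes the embryo and egg arrays did not overlap, as was so for 429 genes in the higher direction (6.79% of those tested) and 456 in the lower (7.21%). At an unadjusted p under 0.05 the directions were closer, with 333 genes higher and 293 lower, and 49.9% of all genes had a positive difference. The counts rest on each egg array and, with embryo replicate 1 in the fit, on the centring. As deposited, without centring, 0 genes were called by limma (38 at an unadjusted p under 0.05), and without embryo replicate 1 the values as deposited gave 74, 69 higher and 5 lower. With any 1 egg array left out 22 to 24 were higher and 2 or 3 lower. With the smg arrays in the fit, so that all 11 share the spread, 19 were higher and 0 lower. Without embryo replicate 1, 94 were higher and 19 lower, without replicate 3, 49 and 4, and without replicate 4, 38 and 8. With each array also scaled to 1 median absolute deviation, the split was 74 higher and 2 lower.

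**Figure D1:**
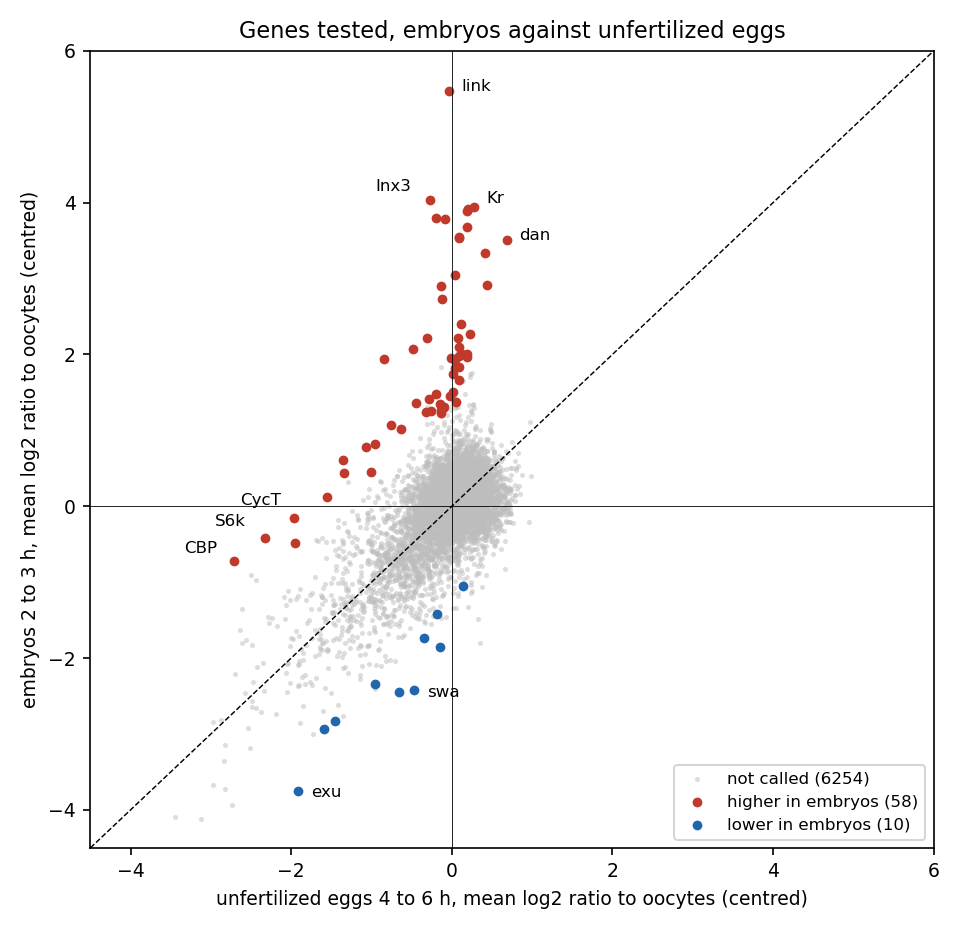
Mean log2 ratio to oocytes of each tested gene in unfertilized eggs (horizontal) and in embryos (vertical), each array centred on its gene median. Red points are the 58 genes higher in embryos, blue points the 10 lower, grey points the genes not called, and the dashed line marks equal values. Most red points rise above an egg mean near 0, and a smaller set lies to the left, where the egg mean is below 0.

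With the sample as numerator, the upper end of the distribution reached further in embryos than in eggs. In embryos 97 tested genes had a mean above 1 and 24 a mean above 2. In eggs 0 genes had a mean above 1, and the highest was 0.99. Below the oocyte level both groups held many genes, with 425 under -1 in embryos and 317 in eggs. The contrast at the upper end depends on that reading: with the sign of the egg arrays turned, those 317 egg means would lie above 1, more than the 97 in embryos.

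The most raised transcript was link, at 5.06, 5.27 and 6.09 on embryo replicates 2 to 4 and at -0.05, 0.05 and -0.11 in eggs, with no value on embryo replicate 1. The difference of 5.51 (SE 0.32, adjusted p = 8.58e-07) is a 45.6-fold higher ratio. Inx3, an innexin subunit of gap junctions, was at 4.37, 3.89, 3.81 and 4.09 in embryos and at -0.08, -0.57 and -0.18 in eggs. Its difference was 4.32 (SE 0.27, adjusted p = 8.58e-07), or 19.9-fold. In both genes every embryo array stood more than 3 above every egg array.

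Genes of cell contact were frequent among the larger differences. Of 18 junction and adhesion genes tested, 5 were higher and 0 lower, 27.8% of the list, and 17 had a positive difference, with a median of 0.58. Among all genes tested 0.917% were higher, 0.158% were lower and 49.9% had a positive difference. This list and those that follow were written with earlier results of these data known. Their counts describe these genes and are no independent evidence of a direction.

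Traf4, a TNF-receptor-associated adaptor that acts at adherens junctions of the gastrulating embryo, was at 4.71, 3.50, 3.40 and 3.52 in embryos and at -0.08, -0.18 and 0.02 in eggs (difference 3.86, SE 0.33, adjusted p = 2.02e-05). Nrt, the transmembrane adhesion protein Neurotactin, was at 4.23, 3.02, 3.49 and 3.95 in embryos and 0.28, 0.12 and 0.15 in eggs (difference 3.49, SE 0.31, adjusted p = 2.56e-05). Itgbn, an integrin beta subunit, was at 3.32, 2.56, 2.47 and 3.24 in embryos and -0.10, -0.51 and 0.19 in eggs (difference 3.04, SE 0.31, adjusted p = 8.52e-05). The embryo values of these genes all lay above 2, and every egg value was within 1 of the oocyte level. Lac, the immunoglobulin-family protein Lachesin of septate junctions, was uneven among embryos, at 0.91, 2.08, 2.49 and 3.37, against -0.21, 0.12 and 0.31 in eggs (difference 2.14, SE 0.44, adjusted p = 0.0304). Inx2, a related innexin (1.05), the apical polarity gene crb (1.14) and the Toll-family receptor gene 18w (1.56) had groups that did not overlap, with adjusted p of 0.161, 0.0819 and 0.0563. The laminin subunit gene LanB1, outside the list and named after its value was seen, was higher by 1.40 (SE 0.30, adjusted p = 0.0416).

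Of 4 genes tested from the cellularization list, not all of which act in that process, 2 were higher and 0 lower. This was 50% of the list against 0.917% of all genes, with a median difference of 2.31. Sry-alpha, which is needed for the actin network of the advancing furrow, was at 4.87, 4.00 and 2.88 on embryo replicates 2 to 4 and at 0.14, -0.31 and 0.76 in eggs (difference 3.72, SE 0.45, adjusted p = 6.46e-04). Elba3, a subunit of the ELBA insulator complex, was at 4.20, 3.49 and 2.93 on the same embryo arrays and at 0.28, 0.83 and -0.86 in eggs (difference 3.45, SE 0.44, adjusted p = 8.88e-04). Both lacked a value on embryo replicate 1, and in both the gap between the groups was wider than the spread within either. Elba2, the partner subunit, was at 1.07 in embryos and -0.10 in eggs, with an adjusted p of 0.0757 for the difference of 1.16. The other member, term, was at 0.18 in embryos and 0.25 in eggs (adjusted p = 0.972).

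Among 9 gap and terminal genes, which divide the embryo along its length, 2 were higher and 0 lower. This was 22.2% of the list against 0.917% of all genes, with a median difference of 0.30. Kr, a zinc-finger gap gene of the embryo's centre, was at 4.82, 3.17 and 3.85 on embryo replicates 2 to 4 and at 0.58, -0.04 and 0.30 in eggs (difference 3.66, SE 0.39, adjusted p = 2.26e-04). hkb, a terminal gap gene of the poles, was at 1.59, 1.49, 0.77 and 1.39 in embryos and -0.11, -0.30 and 0.11 in eggs (difference 1.41, SE 0.28, adjusted p = 0.0279). The gap genes kni (1.48) and gt (0.30) and the terminal gene tll (-0.72) were not called, with adjusted p of 0.106, 0.781 and 0.596. cad, which the mother also supplies as a message, was at -1.62 in embryos and -0.97 in eggs (adjusted p = 0.561). Of 9 pair-rule and segment polarity genes tested 1 was called, 11.1% of the list: nkd, an inhibitor of Wnt signalling, at 1.44, 1.66, 1.07 and 0.82 in embryos and -0.02, -0.45 and -0.51 in eggs (difference 1.57, SE 0.29, adjusted p = 0.0156). The median difference of that list was 0.55.

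All 11 dorsal-ventral genes tested had a positive difference, against 49.9% of all genes, with a median of 1.22. Of the 11, 4 were higher, 36.4% of the list against 0.917% of all genes. This list too was written with earlier results of these data known. Ance, an angiotensin-converting-enzyme homologue and Dpp target of the dorsal ectoderm, was at 3.15, 2.23, 1.57 and 2.12 in embryos and 0.16, 0.39 and 0.12 in eggs (difference 2.04, SE 0.34, adjusted p = 0.00672). twi, the transcription factor of the presumptive mesoderm, was at 1.82, 0.93, 1.08 and 2.06 in embryos and -0.23, -0.13 and -0.25 in eggs (difference 1.68, SE 0.31, adjusted p = 0.0179). Its 4 spots disagreed, their differences spanning 1.14. Embryo values of both genes spread over more than 1 log2 unit, while the egg values of each stayed close together. ush, a cofactor of GATA factors, was at 0.40, 0.79, 0.95 and 2.14 in embryos and -0.46, -0.74 and -1.06 in eggs (difference 1.83, SE 0.37, adjusted p = 0.0279), and Doc3, a T-box factor of the dorsal ectoderm, was higher by 1.33 (SE 0.27, adjusted p = 0.0279). The ligand gene scw (1.25) and the protease gene tld (1.22), which act in Dpp signalling, had adjusted p of 0.191 and 0.335. Dtg, a Dpp target outside the list, was at 4.15, 3.49 and 2.98 on embryo replicates 2 to 4 and at -0.03, 0.45 and -0.13 in eggs (difference 3.45, SE 0.34, adjusted p = 1.10e-04).

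Of 11 neurogenic and proneural genes tested, 5 were higher and 0 lower, 45.5% of the list against 0.917% of all genes. The median difference of the list was 0.71. Tom, a Bearded-family gene whose product restrains Notch ligand signalling, was at 3.75, 3.60 and 4.03 on embryo replicates 2 to 4 and at 0.01, 0.12 and -0.73 in eggs (difference 3.99, SE 0.32, adjusted p = 2.02e-05). The paralogous nuclear factor genes dan and danr were both higher. dan was at 3.88, 3.24, 2.98 and 3.90 in embryos and at 1.19, 0.88 and -0.02 in eggs (difference 2.82, SE 0.35, adjusted p = 4.94e-04), so 2 egg arrays lay well above the median gene. Fewer than 2 of the 2 spots of dan had values in both groups, so agreement between its spots could not be measured. danr was at 2.44, 1.61 and 1.97 on embryo replicates 2 to 4 and 0.46, -0.04 and 0.13 in eggs (difference 1.82, SE 0.31, adjusted p = 0.0113). The neural precursor factors dpn (1.90, SE 0.36, adjusted p = 0.0181) and nerfin-1 (1.80, SE 0.33, adjusted p = 0.0188) were higher as well. The proneural gene l(1)sc (0.45, adjusted p = 0.730) and its relative ase (0.71, adjusted p = 0.395) were not called.

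**Figure D2:**
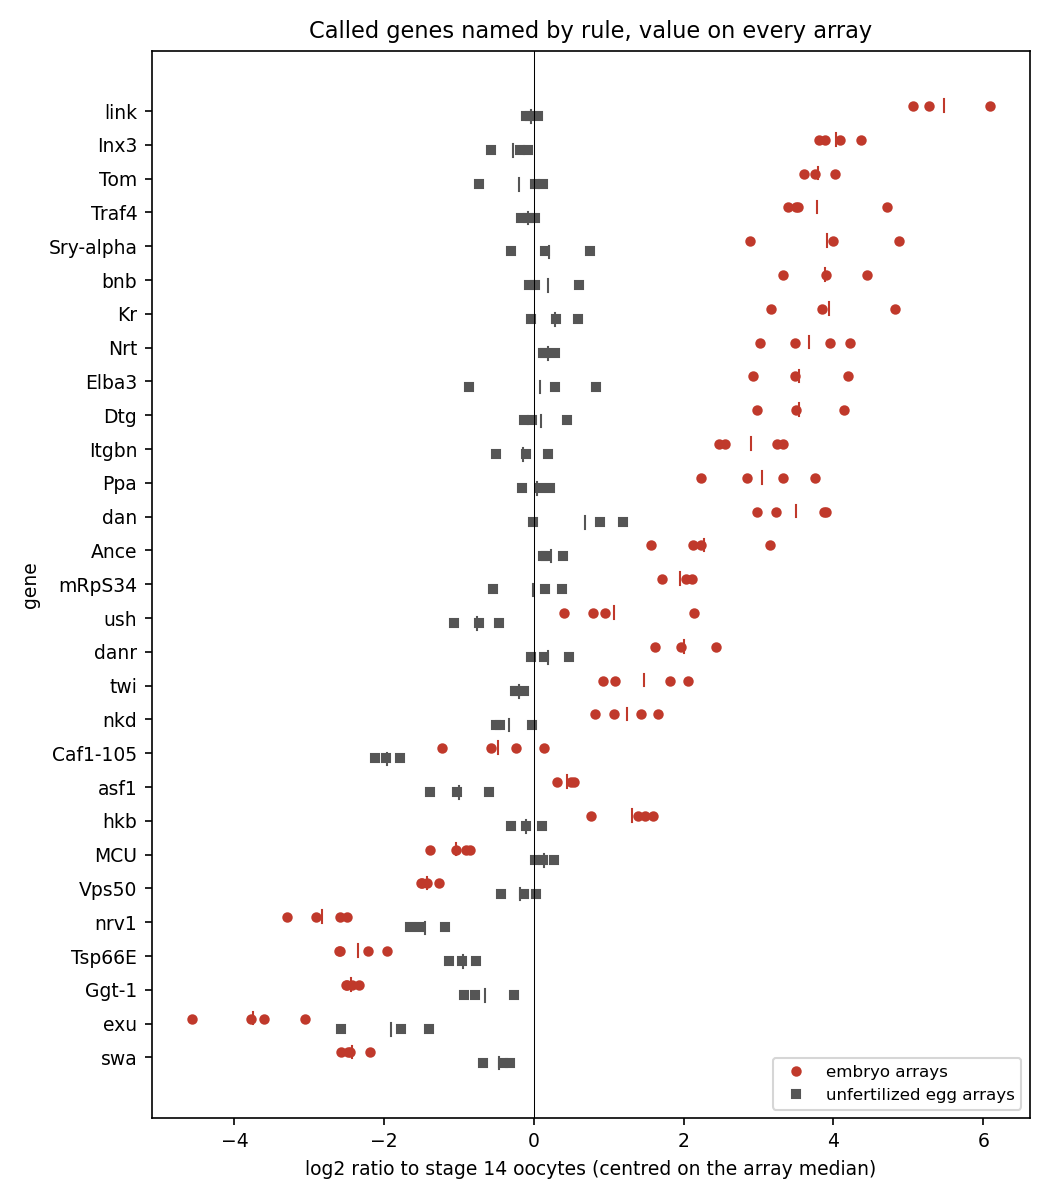
Log2 ratio to oocytes on every array for the called genes that the naming rule chose, in order of the difference, with embryo arrays as red circles, egg arrays as grey squares and short bars for the group means. The groups do not overlap for any gene shown, and the gap is widest for link, with a difference of 5.51.

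Other higher genes fall in no list. bnb was at 4.44, 3.33 and 3.90 on embryo replicates 1 to 3 and 0.02, -0.06 and 0.60 in eggs (difference 3.71, SE 0.34, adjusted p = 6.78e-05). Ppa, an F-box protein gene named as a partner of the segmentation factor Paired, was at 2.23, 3.33, 3.76 and 2.85 in embryos and -0.16, 0.22 and 0.08 in eggs (difference 3.00, SE 0.34, adjusted p = 2.26e-04). Both were above 2 on every embryo array that measured them. Further genes of known kind, named after their values were seen, were Ptr, a Patched-related membrane protein gene (2.92), BNIP3, a mitophagy receptor gene (2.53), the nucleoside transporter gene CNT1 (2.47), the anion exchanger gene Ndae1 (1.89), the G-protein subunit gene Galphas (1.75) and Keap1, a regulator of the oxidative stress response (1.48). Atg17 (1.65) and Atg101 (1.50), members of the complex that starts autophagy, were both higher. mRpS34 (1.96, SE 0.32, adjusted p = 0.00763) was the 1 called of 46 mitochondrial ribosomal protein genes tested. This was 2.17% of the list, against 1.08% of all genes, and the list's median difference was 0.04. Of the 58 higher genes 14 carry only a CG or CR identifier. Among 3100 neighbouring pairs of genes tested together, 2 pairs had both members called, Nrt with mus302 and bnb with Atg101, each member higher in embryos. Of all single genes tested 1.08% were called, and whether neighbours change together was not tested. mus302 was at 0.13 in embryos and -1.55 in eggs, unlike Nrt, at 3.67 and 0.18.

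A smaller class was higher in embryos with a low egg mean. The 58 genes were parted after their values were seen. In 45 the embryo mean was at least 0.5 and the egg mean above -0.5, and their median was 2.01 in embryos and 0.04 in eggs. In 10 the egg mean was at or below -0.5 and the embryo mean below 1. The egg means of these 10 ran from -2.71 to -0.96 with a median of -1.46, and their embryo means from -0.72 to 0.82 with a median of 0.28. The other 3 genes, atilla, Atg17 and ush, had egg means of -0.84 to -0.63 and embryo means of 1.02 to 1.95. The direction of the 10 rests on reading the egg ratios as sample over oocyte, since all 10 differences turn negative when the sign of the egg arrays is turned.

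Among the 10 egg-low genes are 3, grouped after their values were seen, whose products handle histones. asf1, a histone chaperone, was at 0.50, 0.30 and 0.54 on embryo replicates 2 to 4 and at -1.03, -1.39 and -0.60 in eggs (difference 1.45, SE 0.30, adjusted p = 0.0362). It was the 1 called of 9 histone and histone storage genes, 11.1% of that list against 1.08% of all genes. Caf1-105, a subunit of the chromatin assembly factor CAF-1, was at -1.23, -0.58, -0.24 and 0.13 in embryos and -2.12, -1.97 and -1.79 in eggs (difference 1.48, SE 0.32, adjusted p = 0.0433). It was the 1 called of 26 replication genes, 3.85% of that list against 1.08% of all genes. Each of these list shares rests on 1 gene. Another CAF-1 subunit gene, Caf1-180, was not called (0.17, adjusted p = 0.885). Ssrp, a subunit of the histone chaperone complex FACT, was at -0.04, 0.17 and 1.16 on embryo replicates 2 to 4 and -1.42, -1.44 and -1.18 in eggs (difference 1.78, SE 0.34, adjusted p = 0.0256). Every egg value of the 3 genes was below -0.5. BigH1, the embryonic linker histone, and Jabba, the lipid droplet anchor of stored histones, had differences of -0.87 and -0.90, with adjusted p of 0.398 and 0.259.

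The others with a known role, also named after their values were seen, are SAK, the kinase that starts centriole duplication, CycT, the cyclin subunit of the elongation factor P-TEFb, S6k, a growth-control kinase gene, and the mutagen-sensitivity gene mus302. SAK was at -1.002, -1.30 and -0.91 in eggs and at 0.98, 0.20, 0.80 and 1.13 in embryos (difference 1.85, SE 0.29, adjusted p = 0.00455). CycT was at -2.04, -1.98 and -1.87 in eggs and at -0.54, -0.18, -0.39 and 0.50 in embryos (difference 1.81, SE 0.30, adjusted p = 0.00631). For SAK every embryo array was above 0, and for CycT only replicate 4 was. S6k differed by 1.91, SE 0.39, adjusted p = 0.0291, and mus302 by 1.68, SE 0.34, adjusted p = 0.0279. The embryo arrays spread in one order in several classes. Of 8 egg-low genes with values on all 4 embryo arrays, replicate 1 was lowest and replicate 4 highest in 6 (75%), against 26.3% of all genes so measured. The same order held in 4 of 5 genes (80%) that were lower in embryos with both means below the oocyte level, in 2 of 5 (40%) of the other lower genes, in both measured genes of the 3 between the classes and in 5 of 28 (17.9%) raised in embryos. The part of this spread in the result was not tested. With each array left out in turn, SAK was called in 6 of 7 fits, CycT in 4, and asf1 in 1. Of the other egg-low genes, Ssrp, mus302, CG9775 and CR32477 were called in 3, Caf1-105 and S6k in 2, and CBP in 1. None of the egg-low genes was thus called in all 7 fits.

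Lower in embryos were 10 genes, with a bicoid localization factor at the head. swa, whose protein is needed to hold bicoid mRNA at the front of the egg, was at -2.58, -2.48, -2.45 and -2.19 in embryos and at -0.68, -0.31 and -0.41 in eggs (difference -1.96, SE 0.26, adjusted p = 8.88e-04). exu, which acts earlier in the same localization, was at -3.78, -4.57, -3.61 and -3.05 in embryos and -1.77, -1.40 and -2.57 in eggs (difference -1.84, SE 0.37, adjusted p = 0.0279). Both lay below the oocyte level in both groups, exu by more than 1 on every egg array. They were the 2 called of 13 maternal transcripts known to be degraded, 15.4% of that list, against 0.158% lower among all genes. Of the 13, 11 had a negative difference (median -0.59), while 49.9% of all genes tested had a positive one. exu was also the 1 called of 6 germ plasm genes (16.7%).

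Other maternal messages lay low in both groups without a called difference. osk, the organiser of the germ plasm, was at -2.71 in embryos and -2.38 in eggs. dhd, a thioredoxin of the female germline, had the lowest embryo mean of all genes tested, at -4.12, and was at -3.12 in eggs. orb, a translational regulator, was at -1.93 in embryos and -1.34 in eggs. The adjusted p of these differences were 0.846, 0.385 and 0.611. The smg message was at -2.60, -0.77, -1.44 and -1.12 in embryos and at -0.39, -0.18 and 0.17 in eggs. The groups did not overlap, and the difference of -1.35 (SE 0.38) had an adjusted p of 0.141. tor, a maternal receptor gene, was at -1.15 in embryos and -0.10 in eggs (adjusted p = 0.120). Clamp, a maternal activator of the zygotic genome, was at -1.19, -0.30, -0.37 and -0.26 in embryos and 0.50, 0.36 and 0.77 in eggs, with an adjusted p of 0.130 for the difference of -1.07.

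The remaining lower genes share no list. Ggt-1, a gamma-glutamyl transpeptidase gene, was at -2.50, -2.50, -2.42 and -2.34 in embryos and -0.78, -0.26 and -0.93 in eggs (difference -1.78, SE 0.27, adjusted p = 0.00302). Tsp66E, a tetraspanin gene, was at -2.61, -2.22, -2.59 and -1.96 in embryos and -0.77, -0.96 and -1.13 in eggs (difference -1.39, SE 0.27, adjusted p = 0.0246). nrv1, a beta subunit gene of the sodium pump, was at -3.30, -2.59, -2.91 and -2.50 in embryos and -1.52, -1.65 and -1.19 in eggs (difference -1.37, SE 0.29, adjusted p = 0.0305). All 3 were below the oocyte level on every array. Vps50, an endosomal tethering factor gene, was at -1.51, -1.26, -1.50 and -1.43 in embryos and -0.13, 0.03 and -0.45 in eggs (difference -1.24, SE 0.26, adjusted p = 0.0305). MCU, the mitochondrial calcium uniporter gene, was at -1.38, -0.91, -0.85 and -1.04 in embryos and 0.27, 0.01 and 0.12 in eggs (difference -1.18, SE 0.26, adjusted p = 0.0470). Vps50 and MCU were thus within 0.5 of the median gene on every egg array and below it on every embryo array. CG7386, CG11674 and CG9641, named after their values were seen, differed by -1.70, -1.39 and -1.34.

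**Figure D3:**
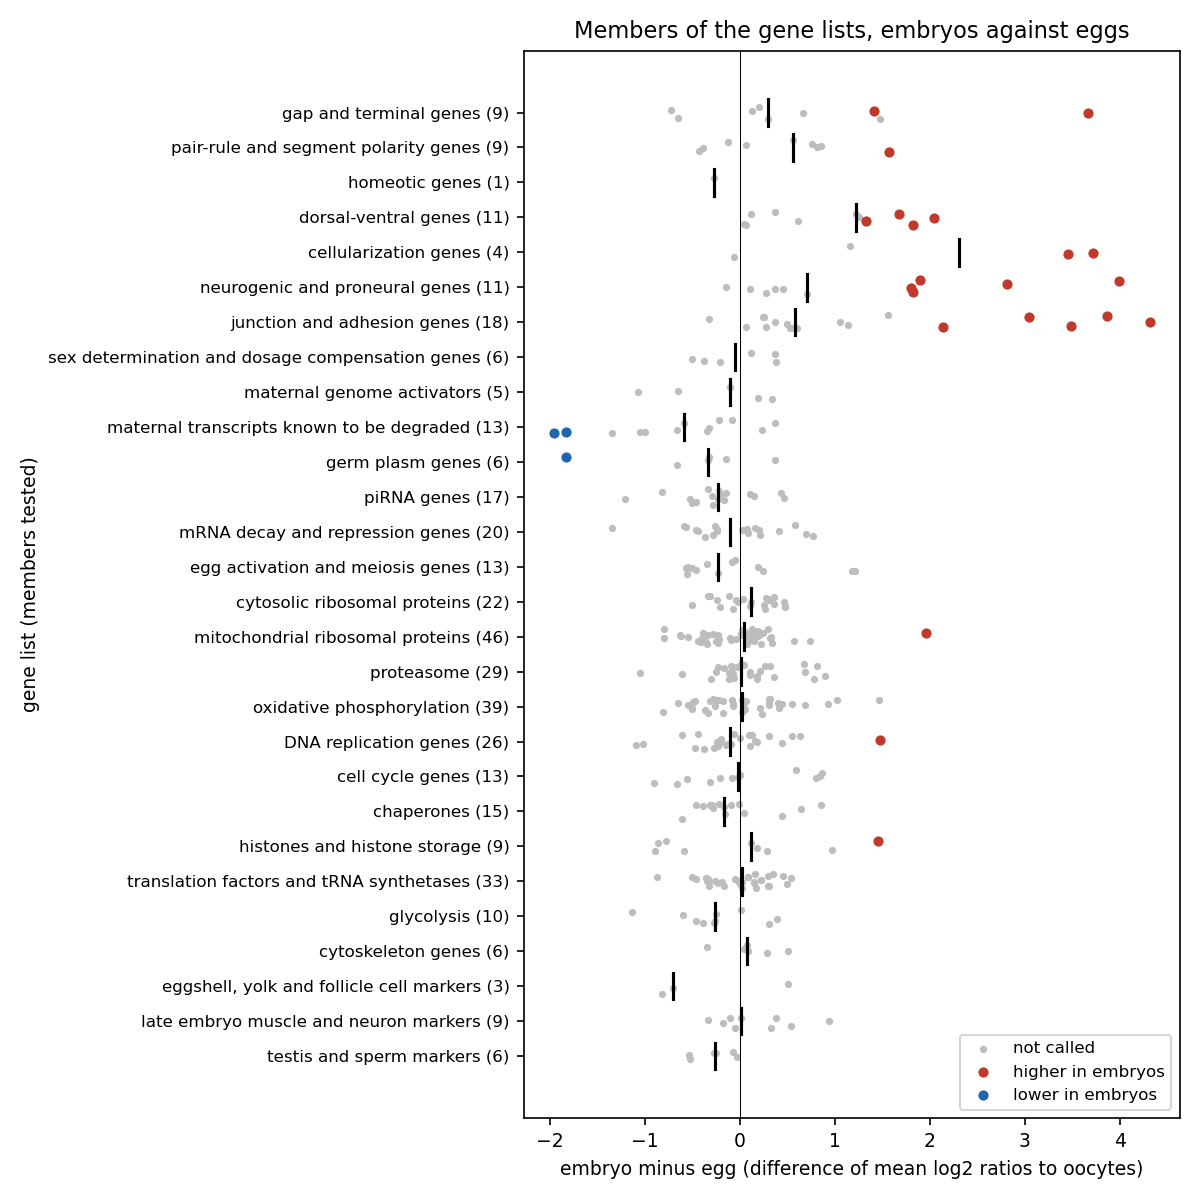
Difference between embryos and eggs for each tested member of the gene lists, with red for genes higher in embryos, blue for genes lower, grey for genes not called and a black bar at the list's median. The junction and adhesion list reaches 4.32, and mRpS34, at 1.96, is the 1 called gene among the ribosomal and proteasome lists.

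In lists of cell upkeep the counts were near the share called among all genes, 1.08%, and say nothing particular of these lists. None was called by limma among 22 cytosolic ribosomal protein genes (median difference 0.11), 29 proteasome genes (0.01), 39 genes of oxidative phosphorylation (0.02), 33 translation factors and tRNA synthetases (0.02), 10 glycolysis genes (-0.27), 15 chaperones (-0.17), 13 cell cycle genes (-0.02) and 6 cytoskeleton genes (0.08). RpL15, of the large ribosomal subunit, and Prosalpha3, of the proteasome core, differed by -0.32 and -0.26, with adjusted p of 0.812 and 0.824. ATPsynbeta, a catalytic subunit of the ATP synthase, was at -1.84, -1.17, -0.82 and -0.07 in embryos and at -2.39, -2.64 and -2.28 in eggs. The groups did not overlap, and the difference of 1.46 had an adjusted p of 0.0826. Another subunit gene, ATPsynC, differed by 0.93 (adjusted p = 0.217). Eno, the glycolytic enolase, was at -2.09 in embryos and -0.95 in eggs (adjusted p = 0.154).

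At the same overall share of 1.08%, no gene was called by limma in the lists of regulators, which held 17 piRNA genes (median difference -0.23), 20 genes of mRNA decay and repression (-0.11), 13 of egg activation and meiosis (-0.24), 6 of sex determination and dosage compensation (-0.05) and 5 maternal genome activators (-0.11). Of the 17 piRNA genes 13 had a negative difference, while 49.9% of all genes tested had a positive one. aub, a PIWI-family protein, was at -0.83 in embryos and -0.68 in eggs (adjusted p = 0.918). Among the egg activation genes mtrm, an inhibitor of the Polo kinase, was at -0.46 in embryos and -1.67 in eggs, and Mos, a meiotic kinase gene, at -0.07 and -1.25, with adjusted p of 0.166 and 0.191. The 1 homeotic gene tested, Dfd, was at -0.07 in embryos and 0.20 in eggs (adjusted p = 0.846).

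The 4 smg arrays share dyes, labelling, RNA amount and age with the embryo arrays, and their values for the same genes stand here beside both groups. Replicate 1 of smg, which is kept, resembled embryo replicate 1: 51.1% of its spots carried a value, and its gene median as deposited was -4.43. Across genes its r was 0.79 with embryo replicate 1 and 0.47 with smg replicate 2. Replicate 3 of smg correlated below 0 with 8 of the 10 other arrays, down to r = -0.51 across genes, so the smg means leave it out. Its markers did not have turned signs. On it the fertilized embryo markers had a median of 1.13 and the yolk genes of -1.75. Over the 4 smg arrays these medians ran from 0.92 to 1.38 and from -2.71 to -1.06. The reason for the negative correlations was not tested. Replicate 4, which is kept, also correlated below 0 with the egg arrays (r = -0.18, -0.11 and -0.10) and with smg replicates 1 and 2 (-0.17 and -0.12). The same held with embryo replicates 1 and 2 (-0.18 and -0.06), and its r with replicate 3 was 0.76. Its marker medians were 1.38 for the fertilized embryo list and -2.71 for the yolk genes. The 45 genes raised in embryos were chosen for embryo values above egg values. Their smg median was 0.64, against 2.01 in embryos and 0.04 in eggs, and the smg mean lay above the egg mean in 40. With replicate 3 included the median was 0.56, the smg mean lay above the egg mean in 41, and it lay below the embryo mean in all 45. Inx3, for example, was at 0.97, 0.32 and 1.41 on smg replicates 1, 2 and 4, above every egg array and below every embryo array. Because the 45 were chosen by the difference of embryo and egg, these counts are no evidence about smg. No share over all genes stands beside them. The 10 egg-low genes had an smg median of -0.40 without replicate 3 and 0.10 with it, so the sign turns on that array. Their smg means lay above the egg mean in 10 of 10 either way. These genes were chosen for low egg values, so that count is no evidence about smg. With replicate 3 the smg mean lay below the embryo mean in 4 of 10. Without it only mus302, S6k and Caf1-105 lay above the embryo mean. The 10 lower genes had an smg median of -1.15 without replicate 3, between -2.38 in embryos and -0.56 in eggs, and of -0.49 with it, above the egg median. These are values set side by side, with no test of the differences, and all groups share the oocyte reference.

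**Figure D4:**
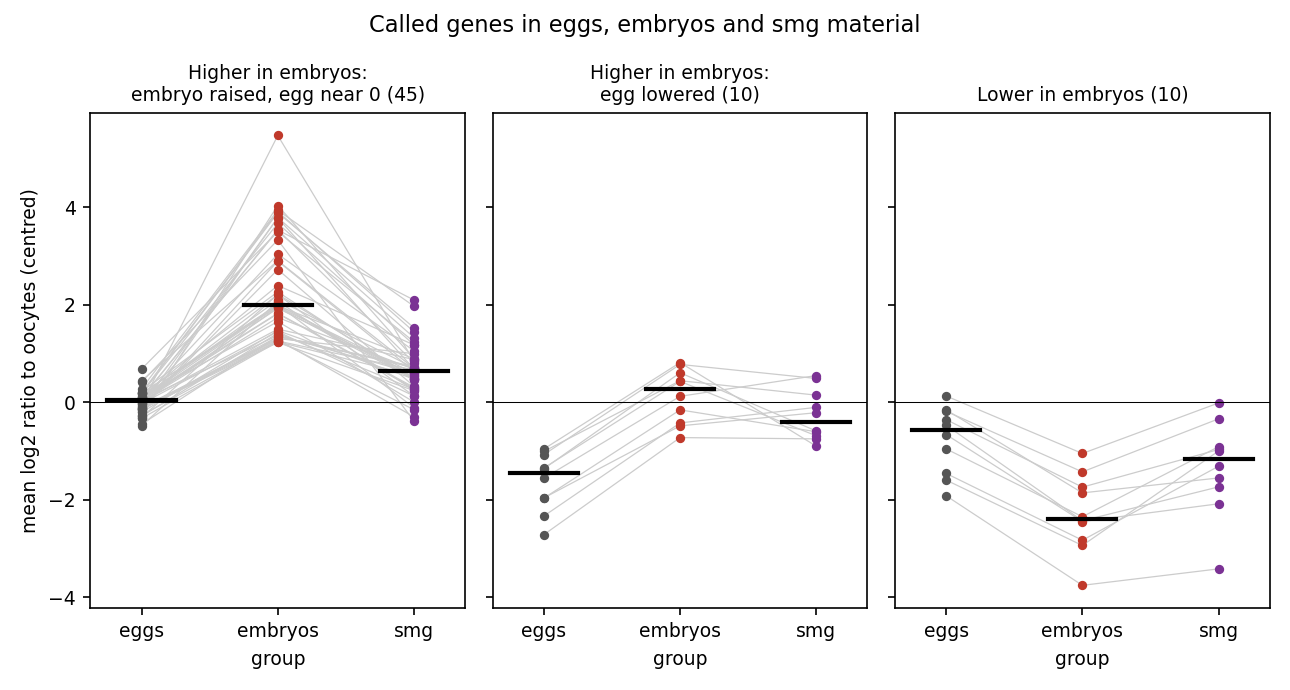
Mean log2 ratio to oocytes of called genes in unfertilized eggs (grey), embryos (red) and smg material without its replicate 3 (purple), with thin lines joining each gene and black bars at the medians. The panels hold 45 genes raised in embryos, 10 genes low in eggs and the 10 genes lower in embryos, with smg medians of 0.64, -0.40 and -1.15.

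**Figure D5:**
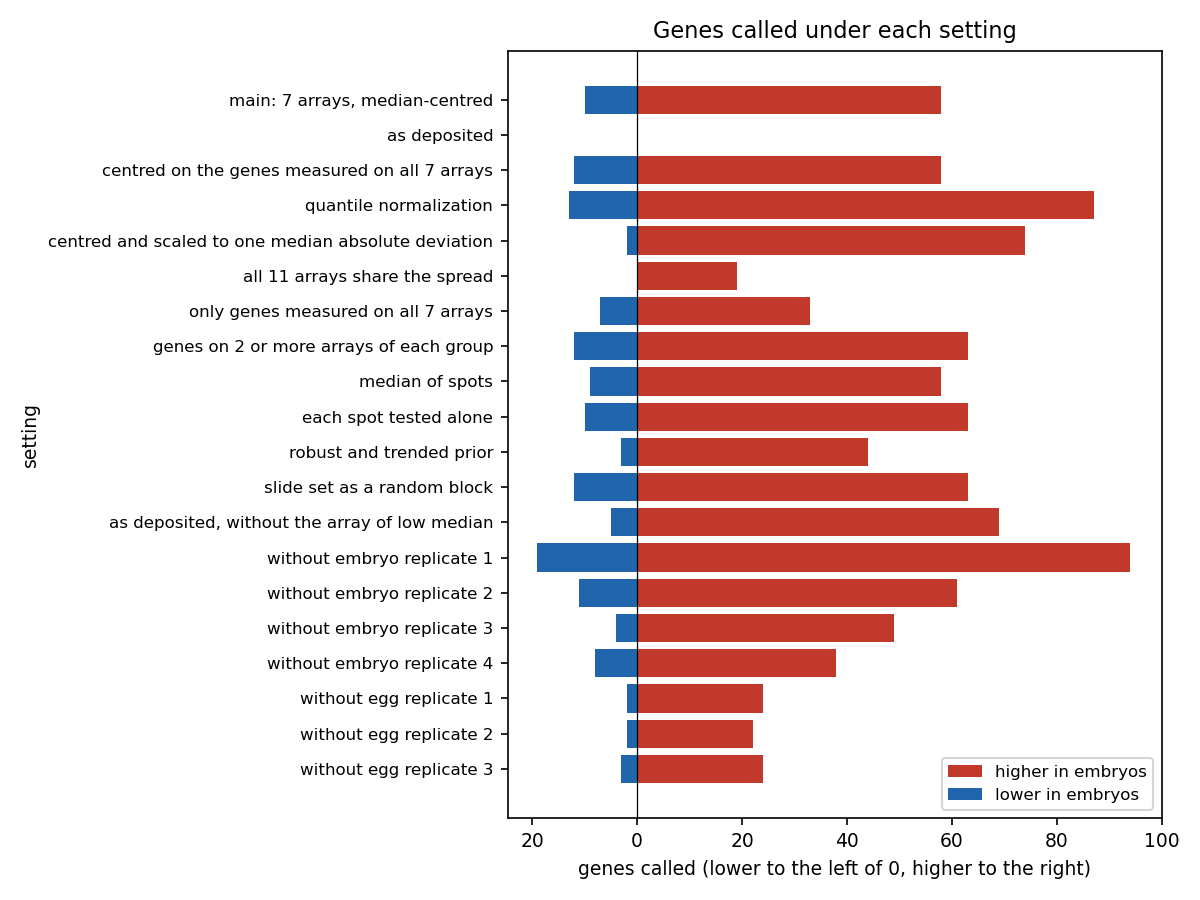
Number of genes called higher (red, to the right of 0) and lower (blue, to the left) in embryos than in eggs under each setting. The counts as reported are 58 and 10, no gene is called in the values as deposited, and leaving out any egg array leaves 22 to 24 higher genes.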

How the data were processed

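Per the submitters' design text, the authors quantified the array images with QuantArray 3 and normalized each array in GeneTraffic Duo 3.2 by rank-invariant LOWESS. The deposited values are 1 log2 ratio per spot and array. For background correction and spot filters the sources used here give no method. The log base was read from the values and is not stated.

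Of 27648 spots, 15116 carried a single gene in the platform table and 12430 were not listed there. Spots were averaged into 6793 genes, of which 6692 matched RefSeq (Release 6 plus ISO1 MT, used for names and gene order only). Each array was centred on its gene median. The 7 arrays were fitted in limma 3.58.1 (R 4.3.3; lmFit, then eBayes), two-sided, with Benjamini-Hochberg adjustment over all genes tested and no imputation. The fit was tested on simulated data.

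The rule for named genes took the 12 largest called differences in each direction among genes with separate groups and a proper symbol, up to 3 called members of each list or else 2 members measured on the most arrays, and smg. Genes outside it were picked once their values were known. The comparison, the lists and the rule were chosen with earlier results of these data known. Replicates were numbered in accession order.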

Additional observations from a re-analysis of the deposited data

Results flagged for a closer look

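Embryo replicate 1 stood far from the other embryo arrays in its gene median as deposited, -4.01. Of the 85 called or named genes with values on all 4 embryo arrays, 5 had 1 array far from the other 3, and chance sets apart about 5% of such groups. Replicate 1 was the far array in 4 of them. Its value was 4.71 for Traf4 (embryo arrays at 4.71, 3.50, 3.40 and 3.52), -1.19 for Clamp (-1.19, -0.30, -0.37 and -0.26), 1.68 for betaTub56D, a tubulin gene (1.68, 0.70, 0.77 and 0.82), and 0.84 for Mst77F, a sperm chromatin gene (0.84, 0.06, -0.06 and -0.01). Replicate 4 was the far array for mus302, at 1.01 (-0.28, -0.14, -0.08 and 1.01). Without replicate 1 the difference of Traf4 was 3.55 and it was still called by limma. Without replicate 4 the difference of mus302 was 1.39 and it was not called.

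Spots without a single gene name enter no comparison above and were tested apart in the same way. Of 7127 such spots 117 were called by limma, 104 higher in embryos and 13 lower, 1.64% of those tested. Their differences reached 4.52 above 0 and -1.87 below. Their genes are not named here.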

How the results depend on the processing

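Counts of called genes (68, of which 58 higher and 10 lower) moved with several settings. As deposited they were 0 in either direction, with a shift of -0.61 in the median difference. With all 11 arrays sharing the spread they were 19, 19 higher and 0 lower. On genes measured on all 7 arrays there were 40, 33 of them higher. Scaling to 1 median absolute deviation left 2 lower genes, a robust and trended prior 3, and the values as deposited without embryo replicate 1 left 5 (of 74, 69 higher). Leaving out 1 array in turn gave 24 to 113 genes, 22 to 94 higher and 2 to 19 lower. The lowest counts came without an egg replicate (26, 24 and 27) and the highest without embryo replicate 1, or 112 on the same genes (92 higher and 20 lower), a setting added after seeing the data. Of the 68 genes 22 were called in all 7 of these fits, 20 higher and 2 lower, swa and Ggt-1. The cause was not tested.

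With the sign of the egg arrays turned, 1100 genes were called, 207 higher and 893 lower, and 17 named or called genes changed direction: asf1 (-0.56), Caf1-105 (-2.44), ATPsynbeta (-3.41), ATPsynC (-3.16), Cdk2 (-3.56), Yp2 (-2.52), Act87E (0.88), betaTub85D (1.26), Bub1 (-0.85), SAK (-0.29), CycT (-2.12), CG9775 (-0.75), Ssrp (-0.91), mus302 (-1.43), S6k (-2.75), CR32477 (-0.14) and CBP (-3.43). Quantile normalization gave 100 genes, 87 higher and 13 lower. No paired analysis was possible because the replicate numbers only order the arrays.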
